A study of Rattus norvegicus with 18 samples.

Results

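Rat chromosome 19 between 15 and 35 Mb of the rn4 build was examined probe by probe, with the stretch from 20 to 25 Mb set against its flanks. The window was chosen by the measured log2 ratios of WHP over WLP of its own probes, so every strain ratio below is a description and none carries a test. All non-control probes that the scanner files place in the window were taken, without the 2 probes of 1 gene. They numbered 303 of the 41012 distinct probes of the array. Probes that overlap on the same strand were merged, which left 300 regions of 40763 in all: 35 at 15 to 20 Mb, 113 at 20 to 25 Mb and 152 at 25 to 35 Mb. For detection in an area, 4 or more of its 6 arrays had to carry the scanner's well-above-background flag for the probe in 1 strain or the other. Of the 303 probes, 216 were detected in all 3 areas, 11 in 2, 38 in 1 and 38 in none. The detected probes formed 213 regions, of which 85 lie at 20 to 25 Mb and 128 in the flanks.

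The 2 strains were bred for opposite drinking behaviour: WHP rats prefer ethanol strongly and WLP rats weakly. All animals were males that had never received alcohol. Total RNA of 3 rats was pooled in equal amounts for each sample. Nucleus accumbens (NAc), medial prefrontal cortex (PFC) and hippocampus (HPC) were each measured in 3 pool pairs, 1 pool of each strain per pair, and each pair was hybridised on 2 arrays with the dyes exchanged. That gave 18 arrays and 9 pool pairs. Whether 1 set of rats supplied all areas is not given in the labels. Pooling hides the spread between animals, so errors below measure the spread between pools.

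Most genes of this chromosome piece are single genes with known roles in every cell, such as Vps35, a subunit of the retromer that returns cargo from endosomes, or Calr, a calcium-binding chaperone of the endoplasmic reticulum. The distal part of the 20 to 25 Mb stretch also carries probes of 2 linked groups with 102 probes over the whole array. How they were linked and chosen is given below. The files describe 35 of these as uncharacterized proteins, 22 as similar to the mouse RIKEN cDNA 1700081O22Rik, 17 as similar to 4933431D05Rik, 5 as spermatogenesis associated glutamate-rich protein 4 (Speer4), 3 as Discs large homolog 5 (Dlg5) and 20 otherwise. Of the 13 group probes in the stretch, 2 carry a RIKEN description and none is described as Speer4 or Dlg5. Speer genes are known as testis-expressed genes of rodents that arose by repeated duplication of a piece of Dlg5, a gene for a scaffold protein of cell junctions.

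The sequences come first, because the probes that carried the largest ratios of the stretch share runs of bases with probes placed elsewhere. A member was called linked when a probe placed over 1000000 bases away, on another sequence or nowhere either shared an unbroken run of at least 20 bases with it on the same strand or listed a common transcript accession. This criterion uses no measured value, but it was set after the ratios were known. It marked 22 of the 303 members, 17 of them at 20 to 25 Mb and 5 in the flanks. Followed from probe to probe, 13 of those at 20 to 25 Mb fell into 2 groups with 68 and 34 probes over the whole array.

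The sequences printed are those of the 3 members with the largest ratios of the stretch, each above 1 probe placed elsewhere. They run 5′ to 3′, and capitals mark the longest run that the probe shares with its partner. ENSRNOT00000038605 lies at chr19:23556736-23556795 on the minus strand and shares 30 bases with a probe of ENSRNOT00000041850 at chr14:4396786-4396845 on the plus strand. ENSRNOT00000044037 lies at chr19:24089561-24089620 and shares 27 bases with another probe of ENSRNOT00000041850 at chr14:4398097-4398156, both on the plus strand. LOC683963 lies at chr19:23544346-23544405 on the plus strand and shares 30 bases with a probe of LOC691401, which is placed on unordered sequence.
ENSRNOT00000038605: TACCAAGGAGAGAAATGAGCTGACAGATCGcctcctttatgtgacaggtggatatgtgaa
ENSRNOT00000041850 (first probe): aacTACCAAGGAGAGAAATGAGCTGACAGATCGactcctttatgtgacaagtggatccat
ENSRNOT00000044037: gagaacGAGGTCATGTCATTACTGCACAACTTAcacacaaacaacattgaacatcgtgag
ENSRNOT00000041850 (second probe): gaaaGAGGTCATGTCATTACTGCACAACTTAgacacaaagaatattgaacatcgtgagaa
LOC683963: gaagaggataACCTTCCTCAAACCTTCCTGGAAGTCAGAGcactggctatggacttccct
LOC691401: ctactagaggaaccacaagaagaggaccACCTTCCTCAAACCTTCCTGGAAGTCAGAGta
Signal on any of these spots may come from transcripts of several copies, and which copy was measured was not tested. Only probes of the array were compared, so how many places of the genome each probe matches was not determined. The gene models of rn4 were not used here, so exon and UTR positions of the probes are not given.

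In the 20 to 25 Mb stretch, 3 regions had a mean log2 ratio of at least 0.5 in size with the same sign in 9 of 9 pool pairs, and all 3 were higher in WHP. They are the 3 members printed above. Over the array, 0.340% of the 26482 detected regions placed on rn4 met the same rule. The flanks held 1 such region, at 25 to 35 Mb.

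The highest at 20 to 25 Mb was the region of ENSRNOT00000038605, an uncharacterised transcript of the smaller group. Its log2 ratios were 0.95, 0.79 and 1.07 in the NAc pairs, 0.34, 0.76 and 0.84 in the PFC pairs and 0.72, 0.88 and 0.52 in the HPC pairs. All pairs were above 0, with PFC pair 1 the lowest and NAc pair 3, whose 2 arrays gave 1.35 and 0.80, the highest. The mean was 0.76 ± 0.22 (SD over 9 pairs), a fold of 1.70.

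ENSRNOT00000044037, of the same group, gave log2 ratios of 0.63, 0.77 and 1.03 in NAc, 0.20, 0.80 and 0.60 in PFC and 1.01, 0.65 and 0.60 in HPC. The mean was 0.70 ± 0.25 (SD, n = 9 pairs), a fold of 1.62, and PFC pair 1 was again the lowest pair. LOC683963, a predicted transcript of the larger group, gave 0.80, 0.27 and 0.89 in NAc, 0.46, 0.17 and 0.92 in PFC and 0.42, 0.69 and 0.40 in HPC. Its mean of 0.56 ± 0.28 (SD, n = 9 pairs) is a fold of 1.47, and its lowest values came from NAc pair 2 and PFC pair 2. The order of the pairs in LOC683963 therefore differed from that in the 2 members of the smaller group. All 3 probes were higher in WHP on 18 of 18 arrays and were well above background in both strains on all of them.

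The offset of 50 that was added in background correction pulls ratios of dim spots towards 0. Taken from the processed signals of the scanner, the mean ratio of ENSRNOT00000038605 was 1.13 and that of ENSRNOT00000044037 was 1.1, while LOC683963 stood at 0.60. Ratios are on the scale after the offset unless the processed signals or the deposited table are named.

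**Figure D1:**
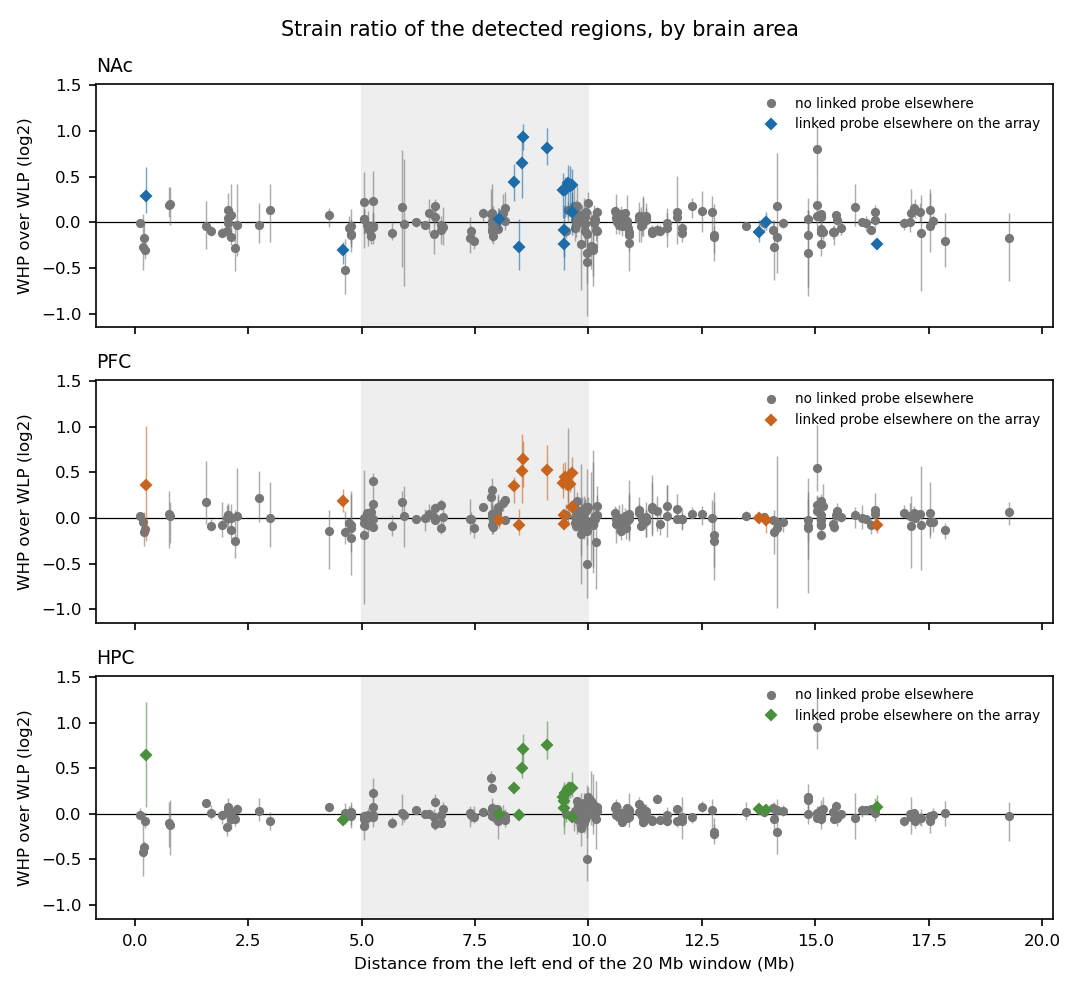
Log2 ratio of WHP over WLP (vertical axis) of the 213 detected regions against distance from the left end of the window (horizontal axis, Mb), in 1 panel per area; points are means of 3 pool pairs, lines run from the lowest to the highest pair, and grey shading marks the 20 to 25 Mb stretch. In each area the raised points of the shaded stretch are the coloured diamonds, regions with a linked probe elsewhere, while most grey points stay near 0.

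The median absolute log2 ratio was 0.047 over the 85 regions of 20 to 25 Mb, 0.044 over the 128 flank regions and 0.045 over all placed regions. The flanks differed from each other, with 0.068 at 15 to 20 Mb and 0.039 at 25 to 35 Mb. By area, the medians in the stretch were 0.088 in NAc, 0.079 in PFC and 0.050 in HPC, against 0.089, 0.047 and 0.043 in the flanks. On area means the stretch was thus above the flanks in PFC and close to them in NAc. Single PFC pairs differed: the stretch was below the flanks in pair 1, at 0.109 against 0.117. It was above them in pair 2, at 0.141 against 0.085, and in pair 3, at 0.102 against 0.080. Within the stretch the values divided by the kind of probe: the 14 linked regions had a median ratio of 0.35, with 12 of them above 0, and the 71 others had a median near 0, at -0.003, with 35 above 0 and 36 below. Of the 14 linked regions, 9 were higher in WHP in 9 of 9 pairs. Of the 71 others, 4 had the same sign in every pair, against 3.38% of all placed regions.

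Position within the stretch followed the same division. The regions between 20 and 23 Mb held none past the size of 0.5 and no linked probe. Those at 23 to 24 Mb held 2 past it, and those at 24 to 25 Mb held 1. At the edges, the last region before 20 Mb, of ENSRNOT00000019301, had a mean ratio of -0.08, and the first inside, of Brd7, a bromodomain subunit of a chromatin remodelling complex, stood at -0.003. The last region before 25 Mb, of Gadd45gip1, stood at 0.17, and the first beyond it, of the transcription factor gene Nfix, at -0.06.

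In limma's fit over the 9 pairs, with Benjamini-Hochberg adjustment, the mean ratio passed 0.05 for 12 of the 88 probes tested at 20 to 25 Mb and for 2 of the 128 in the flanks. Over the array 2.31% of 28376 probes passed. Since the window was chosen on this contrast, nothing is read from these counts. Of the 12 probes, 10 were linked ones of the 2 groups, out of 17 linked probes tested, and 2 had no link, out of 71. The call depended on how the spread was moderated: with an intensity trend and robust moderation, 1 probe of the whole array passed and none at 20 to 25 Mb. With NAc and PFC alone, 1 probe at 20 to 25 Mb passed, and without single pool pairs between 5 and 13 did.

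The other 7 called probes of the larger group sat close together, at mean log2 ratios from 0.34 to 0.39. XM_217507, described as similar to 4933431D05Rik, gave 0.12, 0.62 and 0.46 in NAc, 0.29, 0.52 and 0.32 in PFC and 0.34, 0.17 and 0.33 in HPC. Its mean was 0.35 ± 0.16 (SD, n = 9 pairs), with NAc pair 1 the lowest. ENSRNOT00000044801 at 24.63 Mb gave 0.12, 0.52 and 0.59 in NAc, 0.34, 0.67 and 0.46 in PFC and 0.45, 0.18 and 0.20 in HPC, with the same pair lowest. ENSRNOT00000050888, ENSRNOT00000044160 and both probes of ENSRNOT00000060571 were also lowest in NAc pair 1, at 0.04 to 0.10. The remaining called probe of the group was lowest in PFC pair 2.

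Not every linked probe was raised. ENSRNOT00000041121 at 23.47 Mb, of the larger group, had a mean ratio of -0.12, and a second probe of ENSRNOT00000044801 had 0.07. The second probe of ENSRNOT00000044160 stood at 0.27, with 8 of 9 pairs above 0. The other 4 linked probes of the stretch belong to neither group: ENSRNOT00000049600 at 24.47 Mb had mean ratios of 0.03, -0.08 and -0.08 on its 3 probes, and XM_344732 at 23.03 Mb had 0.005.

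**Figure D2:**
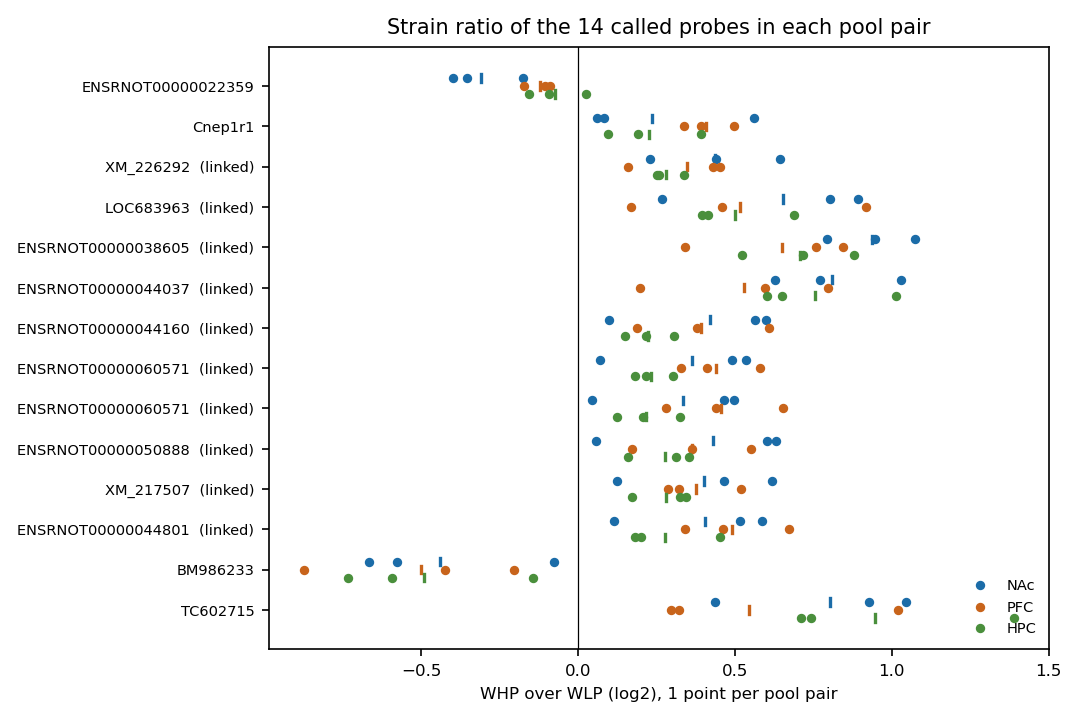
Log2 ratio of WHP over WLP (horizontal axis) of the 14 called probes of the window in order of position (vertical axis); each point is 1 pool pair, coloured by area, and short bars are area means. The 10 linked probes lie above 0 in every pair, BM986233 lies below 0 in every pair, and ENSRNOT00000022359 is above 0 in 1 HPC pair.

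The same groups gave like ratios where their probes are placed outside the window. Of the 102 probes of both groups, 91 were detected in all areas, 13 in the window and 78 outside it. The median ratio of the larger group was 0.35 for its 11 probes in the window and 0.34 for its 54 elsewhere. For the smaller group it was 0.73 for 2 probes in the window and 0.63 for 24 elsewhere. Above 0 were 12 of the 13 probes in the window and 76 of the 78 outside it. By the call above, 10 of 13 and 56 of 78 passed, so these groups made up 66 of the 656 calls on the array. The groups were kept for holding a called probe in the window, so the counts in the window were partly set by that choice.

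On chromosome 14 between 4.40 and 4.53 Mb, the 12 detected probes of the smaller group, most of them on ENSRNOT00000041850, had mean ratios from 0.36 to 1.04. Just left of the window on chromosome 19, 7 probes of the larger group at 14.76 to 14.81 Mb had mean ratios of 0.16 to 0.37. At 14.79 Mb, 1 probe of the smaller group had 0.75. On chromosome 8, the 2 detected probes of the smaller group had 0.06 and 0.53, below both of its probes in the window. Unordered sequence carried 26 probes of the larger group with a median of 0.36, and 15 that are not placed had a median of 0.32. Ratios of this size in these groups were thus also measured outside the 20 to 25 Mb stretch, and which locus the signal comes from cannot be told apart.

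The groups were also followed over the pool pairs. The median of the larger group in the window was 0.07, 0.49 and 0.54 in NAc, 0.28, 0.55 and 0.38 in PFC and 0.32, 0.17 and 0.20 in HPC. Elsewhere it was 0.08, 0.50 and 0.53, then 0.25, 0.57 and 0.35, then 0.32, 0.13 and 0.23. Pair by pair these medians lay within 0.05 of each other, and both were lowest in NAc pair 1. The smaller group was less close. Its 2 probes in the window had medians of 0.79, 0.78 and 1.05 in NAc, 0.27, 0.78 and 0.72 in PFC and 0.86, 0.76 and 0.56 in HPC. Its probes elsewhere had 0.56, 0.67 and 0.89, then 0.19, 0.61 and 0.58, then 0.76, 0.63 and 0.53. The window was higher in all 9 pairs, with the widest gap in NAc pair 1, and both were lowest in PFC pair 1 and highest in NAc pair 3. Single probes elsewhere had means from 0.06 to 1.04, so the gap did not hold for each of them. Their log2 NAc signals also differed, with 8.10 for ENSRNOT00000038605 in the window. Elsewhere, XM_229650 had a signal of 6.40 and a mean ratio of 0.36, and RGD1563738 had 8.60 and 0.60. The part of the offset in the gap was not tested. Probes in the window and elsewhere share the same 9 pool pairs and arrays, and similar sequences. The likeness thus counts as a description of the same RNA pools. The 2 arrays of NAc pair 3 disagreed, and each called linked probe of the window was higher on array 1. Arrays 1 and 2 gave 1.35 and 0.80 for ENSRNOT00000038605 and 1.43 and 0.63 for ENSRNOT00000044037. On array 2 alone, NAc pair 3 would not be the highest pair for either. The called probe of ENSRNOT00000044160, of the larger group, gave 1.18 and 0.02.

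For single probes, ENSRNOT00000044037 differed from the printed ENSRNOT00000041850 probe, whose mean was 0.84, by 0.15 on average over the 9 pairs. ENSRNOT00000038605 differed from its printed partner, at 0.65, by 0.12, the smallest gap among the 6 detected partners compared. The widest, 0.41, was to another probe of ENSRNOT00000041850, with a mean of 0.36. LOC683963 differed from LOC691401, at 0.40, by 0.15, and both were highest in NAc pair 3 and PFC pair 3.

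**Figure D3:**
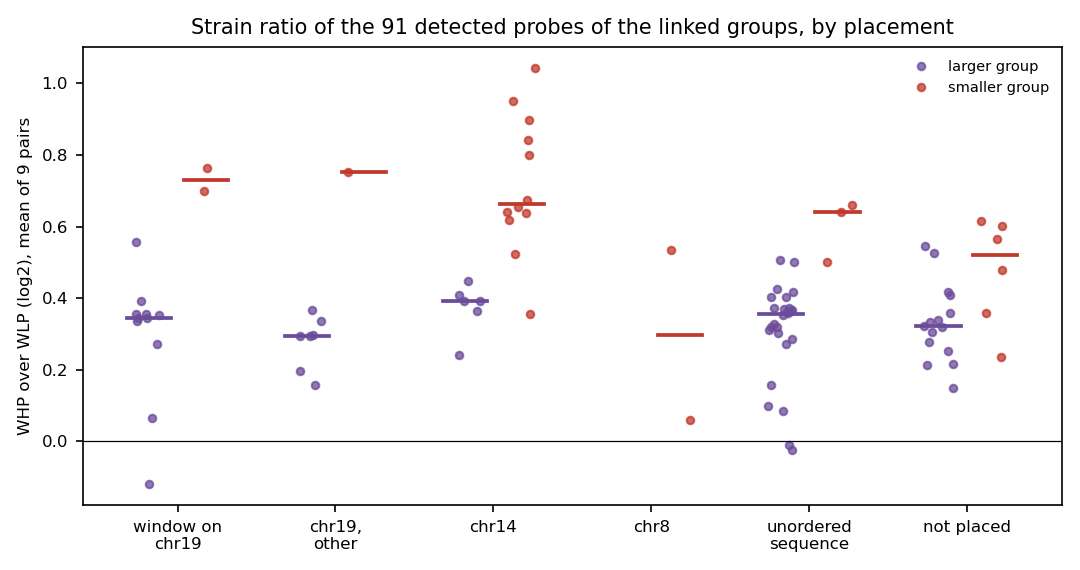
Mean log2 ratio of WHP over WLP over 9 pool pairs (vertical axis) of the 91 detected probes of the linked groups, by where rn4 places them (horizontal axis); each point is 1 probe and bars are medians. The larger group has medians of 0.35 in the window and 0.39 on chromosome 14, and the smaller group 0.73 in the window, 0.66 on chromosome 14 and 0.30 on chromosome 8.

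**Figure D4:**
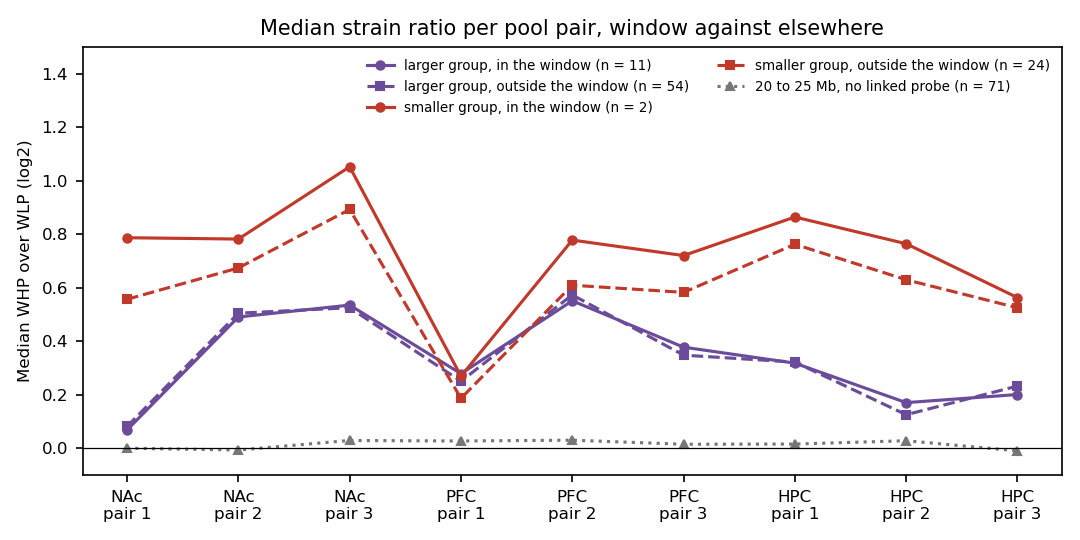
Median log2 ratio of WHP over WLP (vertical axis) in each of the 9 pool pairs (horizontal axis) for the linked groups in the window (solid) and elsewhere (dashed) and for the 71 regions of 20 to 25 Mb without a linked probe (dotted). The solid and dashed lines of the larger group lie within 0.05 of each other, the solid line of the smaller group lies above its dashed line in every pair, and the dotted line stays between -0.01 and 0.03.

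Among regions without a linked probe, BM986233 had the largest ratio at 20 to 25 Mb and was lower in WHP. It is an expressed sequence tag at chr19:24969373-24969432 on the minus strand, close to a probe of Calr that lies on the plus strand. Its log2 ratios were -0.07, -0.67 and -0.58 in NAc, -0.42, -0.20 and -0.87 in PFC and -0.73, -0.14 and -0.59 in HPC. All 9 pairs were below 0, and the mean was -0.48 ± 0.28 (SD, n = 9 pairs). On the processed signals of the scanner the mean of BM986233 was -0.60, with 1 of 18 arrays above 0. The neighbouring Calr probe had a mean of -0.04 ± 0.45.

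Cnep1r1, the regulatory subunit of a nuclear envelope phosphatase, was the other called gene without a link. Its probe at chr19:20245386-20245445 gave 0.08, 0.56 and 0.06 in NAc, 0.39, 0.34 and 0.50 in PFC and 0.10, 0.39 and 0.19 in HPC, a mean of 0.29 ± 0.19 (SD, n = 9 pairs). A second Cnep1r1 probe at chr19:20245812-20245871 had a mean of 0.035, with 5 of 9 pairs above 0, so the probes of this gene disagreed.

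In the flanks, no region at 15 to 20 Mb had the same sign in all 9 pairs. At 25 to 35 Mb 2 regions did. TC602715, an assembled transcript at chr19:30040194-30040253 on the minus strand, gave 0.93, 0.44 and 1.05 in NAc, 0.30, 0.32 and 1.02 in PFC and 1.39, 0.74 and 0.71 in HPC. Its mean was 0.77 ± 0.37 (SD, n = 9 pairs), a fold of 1.70, and no probe elsewhere was linked to it. From the processed signals of the scanner its mean was 1.44. The probe of Anapc10, a subunit of the anaphase-promoting complex, lies on the same strand at chr19:30041891-30041950 and had a mean of 0.03.

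The other region was that of Abce1, a ribosome recycling factor, at 0.10 ± 0.08, with a second probe at 0.04. Mmp2, a matrix metalloproteinase at 15.25 Mb, had the largest mean ratio of the left flank, 0.43 ± 0.48, but its pairs ran from -0.25 in PFC pair 1 to 1.23 in HPC pair 1. Besides TC602715, the flank call was 1 probe of ENSRNOT00000022359 at 15.23 Mb, with a mean ratio of -0.17 ± 0.13 (SD) and 8 of 9 pairs below 0.

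Of 110 genes listed for this part of the chromosome, 82 had a probe in the window and 72 a probe detected in all areas. Their mean ratios were above 0 in 34 and below in 38, with a median of -0.004, against 0.003 over all placed regions. At 20 to 25 Mb, 13 of 30 were above 0 and 17 below, and 1, Cnep1r1, passed the call on 1 of its probes. Of the 8 listed genes with the highest signal there, the protein-folding helper Dnaja2 had a mean ratio of 0.13 ± 0.22, Vps35 0.11 ± 0.13, Itfg1 0.08 ± 0.07 and the antioxidant enzyme gene Prdx2 -0.03 ± 0.17 (SD, n = 9 pairs). Rnaseh2a, the catalytic subunit of RNase H2, stood at -0.04 ± 0.08, and Brd7 and Calr are given above. Gadd45gip1, a protein of the mitochondrial ribosome, was above 0 in 9 of 9 pairs at 0.17 ± 0.11 and did not pass the call.

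Whether the strain ratio depended on the area was tested by differences between areas, which the choice of the window did not use. In limma's fit, 0 of the 216 members passed after Benjamini-Hochberg adjustment in NAc against PFC, NAc against HPC or PFC against HPC, as did 0% of the 28376 probes in each. At an unadjusted p under 0.05 there were 5, 12 and 5 members, and 724, 1778 and 789 probes over the array. The smallest adjusted p of a member was 0.76, in limma's NAc against HPC contrast. All HPC arrays were scanned in another session on other slides, so area and session cannot be told apart in the contrasts with HPC. For ENSRNOT00000038605, limma's estimate of NAc minus PFC was 0.29 ± 0.15 (SE), and for ENSRNOT00000044037 it was 0.28 ± 0.18. Differences of that size did not pass with 3 pairs an area, which does not show that the areas share 1 strain ratio.

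The level of the members, both strains together, was also independent of the choice. In limma's test of the mean log2 signal over 6 pool pairs, 52 of the 216 members were higher in NAc and 46 higher in PFC after Benjamini-Hochberg adjustment. These shares, 24.1% and 21.3%, stood near those of all 28501 probes, 22.4% and 21.9%. At 20 to 25 Mb 23 of 88 were higher in NAc and 15 in PFC, and in the flanks 29 and 31 of 128. HPC was scanned in another session on other slides, so its levels are given without a test. With bulk RNA, fewer cells of a type and less RNA per cell cannot be told apart.

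Junb, an immediate-early transcription factor gene of the AP-1 family at 24.83 Mb, differed most. Its log2 signal was 7.40, 7.65 and 7.26 in the NAc pairs, 9.14, 8.76 and 9.00 in the PFC pairs and 8.01, 7.83 and 7.92 in the HPC pairs. The NAc and PFC pairs did not overlap, and limma gave a difference of -1.53 ± 0.12 (SE, NAc minus PFC, adjusted p = 0.000114). The transcription factor gene Tox3 at 17.97 Mb was also higher in PFC, by limma's difference of -0.79 (adjusted p = 0.000503). Both probes of Arhgap10 were higher in PFC, with differences of -0.65 and -0.87. The transcript ENSRNOT00000050750 at 17.74 Mb had a difference of -0.71.

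TC646703 at 29.84 Mb was the member most raised in NAc, with log2 signals of 10.03, 9.82 and 9.66 in NAc, 8.45, 8.57 and 8.33 in PFC and 9.21, 9.39 and 9.43 in HPC. Limma's difference was 1.39 ± 0.10 (SE, adjusted p = 8.82e-05). Frem3, an extracellular matrix gene, was higher in NAc than in PFC by 1.08 ± 0.19 (SE) and stood highest in HPC, at 10.28, 10.23 and 9.99. Lsm6, part of the U6 snRNA-binding Lsm ring, was higher in NAc by 0.98 ± 0.08. Within 20 to 25 Mb, TC618263 and CO567020 were higher in NAc by 0.97 ± 0.10 and 0.94 ± 0.11 (SE). Of the 72 listed genes, 15 had a probe higher in NAc and 19 had a probe higher in PFC. Cyld is in both counts, since its 2 probes differed in direction.

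**Figure D5:**
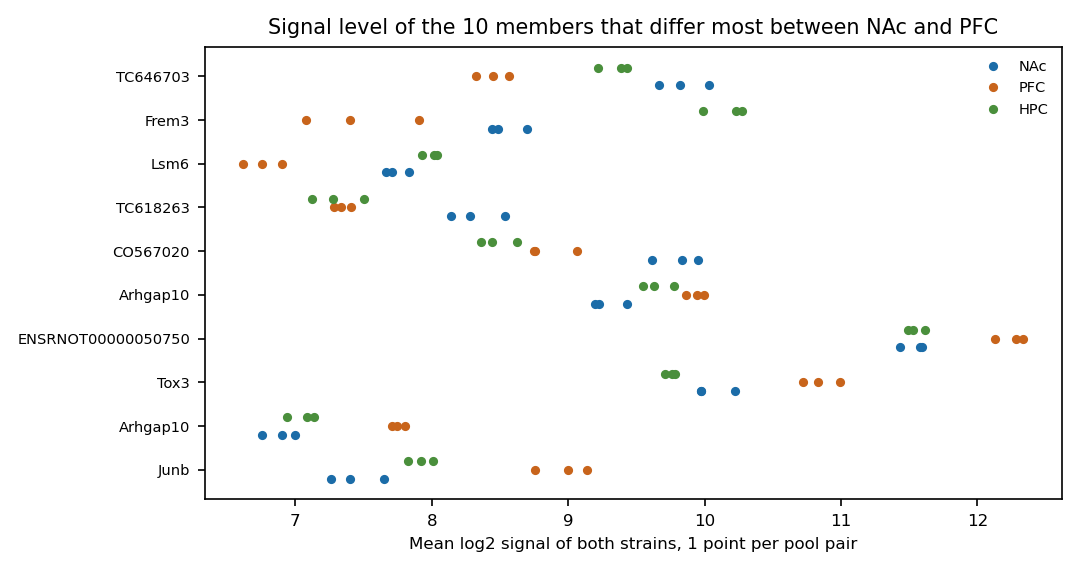
Mean log2 signal of both strains (horizontal axis) of the 10 members that differ most between NAc and PFC (vertical axis), with 1 point per pool pair coloured by area. For each of them the NAc and PFC points do not overlap, as for Junb with 7.26 to 7.65 in NAc and 8.76 to 9.14 in PFC.

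Marker genes went with the labelled areas only in part: 7 of 9 detected striatal markers were higher in NAc than in PFC, 5 of 6 cortical ones were higher in PFC, and 2 of 4 hippocampal ones were highest in HPC. All 6 oligodendrocyte markers were higher in NAc than in PFC, with a median difference of 1.28, and their part in the level differences was not tested. Dissection markers also moved between strains. The median ratio of the 4 detected choroid plexus markers ran from -0.18 to 3.13 over the pairs, and that of the 7 meningeal markers from -1.16 to 2.48. In PFC pair 1, where the medians of both lists were below 0, at -0.18 and -1.16, the smaller group had its lowest medians, 0.27 in the window and 0.19 elsewhere. Both lists were also below 0 in NAc pair 3, at -0.05 and -0.77. There the smaller group had its highest medians, 1.05 in the window and 0.89 elsewhere, over 2 arrays that correlated at only 0.05. The part of these markers in the strain ratios was not tested. Between 28670 and 38080 spots per array were well above background in green. The dye-swapped arrays correlated at 0.34 to 0.72 over the detected probes in 7 pairs, but at 0.05 in NAc pair 3 and -0.01 in HPC pair 2. Without array 1 of NAc pair 3, 3 regions of 20 to 25 Mb and 1 of the flanks were past 0.5, and 9 probes of 20 to 25 Mb were called.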

How the data were processed

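Spot intensities of both channels were deposited as Agilent Feature Extraction output, per the file headers. Deposited beside it was a table with 1 log2 ratio per spot and array, its normalization not given in the sources used here. Set against the scanner's ratios, its values ran as WHP over WLP on each of the 18 arrays. Of the scanner's flags, per the file headers, well above background was used for detection and non-uniform for exclusion. Spots flagged as saturated were not excluded.

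With limma 3.58.1 in R 4.3.3, intensities were background-corrected (normexp, offset 50) and loess-normalized within arrays, with 1639 control spots at weight 0. Spots marked non-uniform were dropped. So were 19 spots, on 4 arrays, whose local background exceeded 10 times the array median, because they distorted the background fit of 2 arrays. This step was chosen after the data were seen. Spots of a probe and the 2 dye-swapped arrays of a pair were averaged. Models had 1 coefficient per area (lmFit, eBayes), with Benjamini-Hochberg adjustment over detected probes and a threshold of 0.05. Levels used quantile-normalized mean log2 signals. The code was tested on simulated data. Differences between pools measure only the spread between pools of 3 rats, and the number of arrays limits precision.

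The members and lists were chosen with earlier results of these data known. Regions were named by rule: those at 20 to 25 Mb past 0.5 with the same sign in 9 of 9 pairs, the 5 largest of each flank with the same sign, all members called between areas, and the 5 highest and 5 lowest in level. Linked probes, called probes and a few neighbours were named after their values were seen. RefSeq symbols (GRCr8 table, names only) matched 151 of the 303 probes. One gene of the window is not reported here. Alternatives covered background correction, scanner and deposited values, detection, dye orientation, pool pairs left out, a replicate block, 1 scan session, region summaries and moderation.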

Additional observations from a re-analysis of the deposited data

How the results depend on the processing

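Past 0.5 were 3 regions at 20 to 25 Mb and 1 in the flanks. At a threshold of 1 none was, in either. On the scale after the offset, 0 remained at 20 to 25 Mb without linked probes. With no background subtraction, scanner processed signals or the deposited table, 4 regions were past 0.5 there. On processed signals BM986233, which has no linked probe, had a mean of -0.60, lower in WHP. Linked probes were thus not the only ones of that size on every scale. Leaving out 1 pool pair gave 2 to 4 regions at 20 to 25 Mb and 1 to 2 in the flanks (2 without PFC pair 1). The median absolute ratio of the stretch moved from 0.047 to 0.087 with scanner processed signals and to 0.084 with WHP in Cy3 only, and that of the flanks from 0.044 to 0.071 with WHP in Cy3 only. The 12 probes called at 20 to 25 Mb fell to 1 with NAc and PFC alone, 0 with trend and robust moderation and 2 without linked probes, and ranged from 5 (without HPC pair 3) to 13 when 1 pair was left out. Leaving out NAc pair 3, PFC pair 3 or HPC pair 1, 2 or 3 took the count to 7 or fewer. Over the array, 656 calls became 95 with NAc and PFC alone, 1 with trend and robust moderation, 1443 with WHP in Cy5 only, 437 with the replicate block and 285 to 1122 when 1 pair was left out. No member passed an area difference in any setting run. With the replicate number as a replicate block, 10 probes at 20 to 25 Mb were called, 0 members in the area differences and 97 in the level test, against 98. Same-numbered pairs did not deviate together (correlations from -0.37 to 0.16 across areas), so the numbers were not taken to pair samples. Level calls among members ranged from 75 to 96 when 1 pair was left out. Named regions kept their sign in all settings run. They were named for 1 sign in all pool pairs, so leaving out pairs or HPC could not change it. The 2 of the smaller group and TC602715 rose with scanner processed signals. With the deposited table ENSRNOT00000044037 and TC602715 also rose, to 0.96 and 1.14. Leaving out linked probes, leaving out array 1 of NAc pair 3 and keeping every spot's background were chosen after seeing the data. The causes of these shifts were not tested. Dim signal limits these sizes, since the offset shrinks them.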

Other observations

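Windows of 5 Mb on rn4 with at least 20 detected regions were ranked by the share of regions past 0.5 with 1 sign in all pairs. In this ranking 20 to 25 Mb of chromosome 19 stood 11 of 438, with 3 of 87. Regions were assigned by their start, and no gene was left out of these counts. The first 5 Mb of chromosome 14, which hold many probes of the same linked groups, ranked 5, with 5 of 76. By the median absolute ratio the chromosome 19 window ranked 191. Since the window was chosen on these ratios, its ranks are a description only. The mitochondrial genome was counted as a window.

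Local background set 2 arrays apart. Array 1 of PFC pair 1 held 9 spots with a background over 10 times the array median, and array 1 of HPC pair 3 held 8. On these arrays the deposited values correlated with the normexp ratios at 0.999 and 0.999 when those spots were kept in the background fit, and at 0.876 and 0.938 when they were left out. On the other 16 arrays the correlation was 0.957 to 0.986 when they were left out. With those spots kept, 11 probes at 20 to 25 Mb were called in place of 12, and the same number of regions, 3, was past 0.5.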
